A study of Mus musculus with 42 samples.

Results

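The sites described here are the genomic positions bound by HOXC6 in mouse embryoid bodies (EBs, aggregates of differentiating embryonic stem cells) that received no patterning signals, set against the positions bound by HOXC6 in EBs patterned towards spinal motor neurons. Each deposited list of binding events was kept on chromosomes 1 to 19 and X, ranked by its own estimated HOXC6 ChIP read count, and the top 10000 events were taken. A top event counted as shared when any event of the other list, of any rank, lay within 100 bp. This gave 8804 EB-only sites, 1196 shared sites among the EB top events, 2213 shared sites among the day 3 top events and 7787 day 3-only sites, out of 62576 HOXC6 events in both lists. The 12 lists of the series used here hold 609324 events on the same chromosomes.

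Both groups used the 1 line Ainv15(iFlag.Hoxc6), an embryonic stem cell line in which doxycycline (Dox) switches on a Flag-tagged Hoxc6 transgene, and both were precipitated with an antibody to Flag. The unpatterned EBs were given Dox for 12 h and, by their labels, neither RA nor SAG. The comparison asks where the same factor is found before and after patterning. The patterned EBs were exposed for 3 days to retinoic acid (RA) and a smoothened agonist (SAG) that activates the Sonic hedgehog pathway, with Dox from day 2 for 24 h. Each group has 2 libraries, of 14.1 and 19.9 M reads in EBs and 17.7 and 16.4 M reads at day 3, against a control of 10.5 and 20.6 M reads. The caller assigned a fraction of 0.297 and 0.201 of the EB reads and 0.08 and 0.07 of the day 3 reads to signal. The labels of both EB libraries begin with 1 common identifier and those of the day 3 libraries with 2 others. Developmental stage, signals, Dox duration, control library, identifier and signal fraction differ together between the lists and cannot be told apart. The level of the tagged protein and the reads of one stage at the sites of the other were not analysed here, so a site named for 1 stage means only that no event was listed at the other stage.

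Hox proteins are homeodomain transcription factors that give cells along the head-to-tail axis their position. HOXC6 is a central paralog expressed at brachial levels of the spinal cord, where it takes part in setting the identity of motor neurons that innervate the forelimb. Hox homeodomains recognise short AT-rich words, and their partners PBX and MEIS, of the TALE homeodomain family, bind beside them. Embryonic stem cells use a different set of factors, among them the POU factor OCT4 and SOX2, while RA and hedgehog signals turn on neural progenitor factors such as OLIG2.

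Sites of high read count are printed as examples of the sequence under an event, not as typical of a class. For EB-only, shared and day 3-only sites the 3 of highest ChIP read count are printed that overlapped no annotated UTR and held at least 1 of the 15 words searched, so that finding a word in them is partly set by the choice. The day 3-only site of most reads did not meet these conditions. Each runs 50 bases to either side of the event, on the plus strand of GRCm38, with capitals marking every match to those words on either strand.

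The 3 EB-only sites lay at chr1:84549705-84549805 in an intron of Dner, at chr14:32986818-32986918 in an intron of Wdfy4, and at chr8:47726981-47727081 between genes. Dner encodes a neuronal Notch-related transmembrane protein. Their events had 12373, 9386.2 and 9342 ChIP reads, and the nearest day 3 event of any rank was 25182, 35950 and 12738 bp away. All 3 held the homeodomain core TAAT, and the second also held 4 copies of TTTAT, a word preferred by posterior Hox factors.
EB-only site 1: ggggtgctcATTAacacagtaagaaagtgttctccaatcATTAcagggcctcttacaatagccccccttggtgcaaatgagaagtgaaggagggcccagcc
EB-only site 2: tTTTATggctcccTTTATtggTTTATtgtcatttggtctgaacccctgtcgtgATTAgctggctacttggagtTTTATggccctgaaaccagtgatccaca
EB-only site 3: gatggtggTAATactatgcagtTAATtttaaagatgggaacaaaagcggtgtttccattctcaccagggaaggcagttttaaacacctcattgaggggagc

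The 3 shared sites, from the EB ranking, lay at chr15:103305324-103305424 and chr8:91867028-91867128 in introns of the noncoding genes Gm49482 and Gm28511, and at chr3:21892230-21892330 between genes. They had 11792.8, 8835.6 and 9857.3 reads in EBs, and the day 3 events 6, 7 and 5 bp away had 567.7, 554.6 and 291.8 reads. Their log2 folds over control in EBs were 5.268, 11.29 and 11.55. The chromosome 15 site was thus below the median of 6.56 for EB-top shared sites, in spite of its read count. The chromosome 15 site held 2 copies of TGACAG, the word bound by MEIS, and no TAAT. The others held TAAT.
Shared site 1: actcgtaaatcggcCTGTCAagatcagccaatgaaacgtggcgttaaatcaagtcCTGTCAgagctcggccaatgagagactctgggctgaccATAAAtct
Shared site 2: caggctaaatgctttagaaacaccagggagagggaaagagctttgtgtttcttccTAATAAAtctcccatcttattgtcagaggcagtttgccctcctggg
Shared site 3: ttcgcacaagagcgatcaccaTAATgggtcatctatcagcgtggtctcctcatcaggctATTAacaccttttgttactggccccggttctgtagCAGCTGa

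The 3 day 3-only sites lay between genes at chr11:92523137-92523237, chr11:107473101-107473201 and chr5:97218956-97219056. They had 1262.8, 1124.4 and 1123.5 reads at day 3. The nearest EB events lay 71638 and 26093 bp from the first and second, and 169 bp from the third, which is just outside the limit for a shared site. All 3 held TAAT.
day 3-only site 1: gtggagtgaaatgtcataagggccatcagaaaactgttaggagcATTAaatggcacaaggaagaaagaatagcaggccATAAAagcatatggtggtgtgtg
day 3-only site 2: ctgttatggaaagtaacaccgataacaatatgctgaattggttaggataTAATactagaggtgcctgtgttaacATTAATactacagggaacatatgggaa
day 3-only site 3: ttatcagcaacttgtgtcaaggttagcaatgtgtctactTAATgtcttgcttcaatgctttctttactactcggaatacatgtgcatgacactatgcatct

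The lists had few top sites in common. Of the EB top events 11.96% (95% Wilson interval 11.3 to 12.6%) had a day 3 event, and of the day 3 top events 22.13% (21.3 to 23%) had an EB event. These intervals cover counting error only, and no test over replicates was possible because each list pools its libraries. The EB list is the longer one, with 44678 events against 17898. When the EB list was shortened to the length of the day 3 list, the day 3 share was 12.31%, and with partners taken only from the top 10000 the shares were 8.42% of EB and 7.82% of day 3 top events, so that the order of the shares turned. Where an event was shared, the positions were close, with a median offset of 24 bp from the EB events and 25 bp from the day 3 events. The read counts of paired events were nearly unrelated, with Spearman's rho of 0.106 over the 1196 EB pairs and 0.068 over the 2213 day 3 pairs, a description across sites of the same 4 libraries.

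Sharing was most frequent among the strongest events of both lists. In EBs 22.4% (19.9 to 25.1%) of the first 1000 events by read count had a day 3 event, against 7.8% (6.29 to 9.63%) of the last 1000. At day 3 these shares were 36.1% (33.2 to 39.1%) and 16.6% (14.4 to 19%). The strongest EB events were still mostly EB-only, although the first 1000 each had at least 979.4 reads. The median EB-only site had 304.7 ChIP reads and a log2 fold over control of 6.46, and the median EB-top shared site had 385.8 reads and 6.56. The medians at day 3 were 105.9 reads and 4.06 for day 3-only sites and 127.4 reads and 4.32 for shared sites. Read counts are compared only within a list, since depth and signal fraction differ between the lists. The events on either side of rank 10000 had 163.9 reads in EBs and 64.5 reads at day 3.

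**Figure D1:**
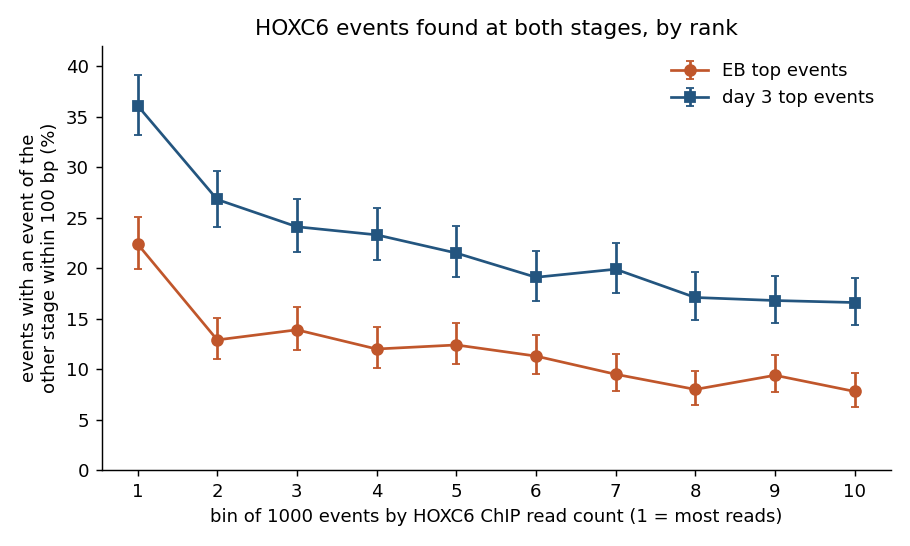
Share of HOXC6 top events (y axis, percent) with an event of the other stage within 100 bp, in bins of 1000 events ordered by ChIP read count (x axis), for the EB and the day 3 ranking. Points are shares and bars 95% Wilson intervals; the first bin is highest in both rankings, at 22.4% in EBs and 36.1% at day 3.

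Few sites of either stage sat at promoters, and EB-only sites did so more often than day 3-only sites. A promoter was taken as the 1 kb on either side of any annotated transcription start site (TSS). Promoters held 7.2% (6.68 to 7.76%) of EB-only sites, 8.45% of EB-top shared sites, 8% (6.94 to 9.2%) of day 3-top shared sites and 4.91% (4.45 to 5.41%) of day 3-only sites, where 6.13% of genome bases lie in such windows. EB-only exceeded day 3-only by 2.3 percentage points (1.57 to 3.02). Promoter shares were higher further down both rankings, at 9.57% of EB events and 16.6% of day 3 events below rank 10000. Over all events of each list, shared or not, the order was reversed, with 9.07% in EBs and 10.5% at day 3. Of the day 3 top events at promoters 31.7% (27.9 to 35.6%) were shared with EBs, against 21.6% (20.7 to 22.4%) of those elsewhere, while in the EB ranking the values were 13.7% (11.4 to 16.4%) and 11.8% (11.2 to 12.5%).

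The rest of the sites lay in introns and between genes. Introns outside promoters held 43.3% of EB-only and 47.8% of day 3-only sites, and intergenic sequence held 46.9% and 44.8%, against 39.4% and 51.2% of genome bases. The median distance to the nearest TSS was 14850 bp for EB-only sites, 15960 bp for EB-top shared sites, 15500 bp for day 3-top shared sites and 18930 bp for day 3-only sites. Day 3-only sites were more often over 50 kb from any TSS, with 14.2% at 50 to 100 kb and 9.03% beyond, against 11.6% and 6.99% of EB-only sites. CpG-rich sequence, typical of housekeeping promoters, was rare even at promoters, around 2.52% (1.56 to 4.06%) of EB-only and 7.85% (5.56 to 11%) of day 3-only promoter sites.

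**Figure D2:**
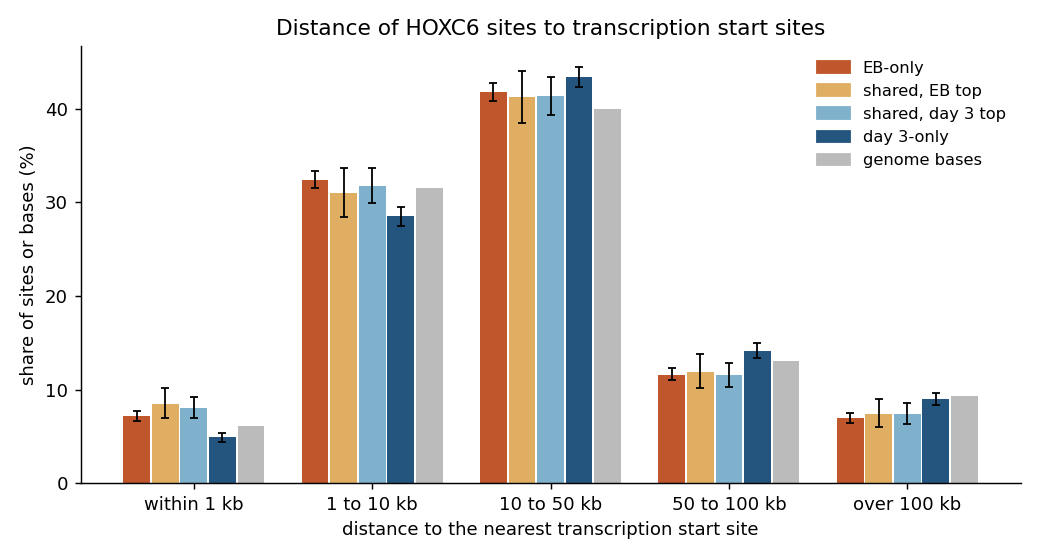
Share of sites of each class (percent) by distance to the nearest transcription start site, with 95% Wilson intervals, beside the share of genome bases at that distance in grey. The classes differ by a few percentage points in every bin, and 7.2% of EB-only against 4.91% of day 3-only sites lie within 1 kb.

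The classes differed in base composition and in repeats. The median GC content within 50 bp of the event was 46.5% for EB-only sites, 45.5% and 43.6% for shared sites in the EB and day 3 rankings and 41.6% for day 3-only sites. The event base was soft-masked as a repeat in 14.5% (13.8 to 15.3%) of EB-only sites and 6.25% (5.74 to 6.81%) of day 3-only sites, with 5.44% and 5.74% in the shared classes, against 34.3% of genome bases. Chromosome X carried 2.69% of EB-only, 1.51% and 1.49% of shared and 1.76% of day 3-only sites, below its 6.39% of the bases searched.

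The homeodomain core TAAT was less frequent at EB-only sites than in the other classes. TAAT, searched on both strands within 50 bp of the event, was present at 59.7% (58.6 to 60.7%) of EB-only sites, 71.4% (68.8 to 73.9%) of EB-top shared sites, 75.5% (73.7 to 77.3%) of day 3-top shared sites and 74.9% (73.9 to 75.9%) of day 3-only sites. Of all genome windows of the same length 52.6% hold it. EB-only minus day 3-only was -15.24 percentage points (-16.6 to -13.8). The longer word TAATTA gave -1.57 points, and TAAT within 100 bp gave -9.15. GC content moved with this word. Among sites under 40% GC, TAAT was present at 80.7% of EB-only and 87.7% of day 3-only sites, and among sites of 50% GC or more at 41.7% and 46.9%. Between these, the shares were 70.2% and 74.5% at 40 to 45% GC, and 56.8% and 63.8% at 45 to 50% GC. EB-only sites were lower in all 4 ranges, each time by less than over all sites.

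The PBX-Hox words and the MEIS word were most frequent at shared sites, and TTTAT was least frequent at EB-only sites. TGATTTAT, which pairs a PBX site with a posterior Hox site and overlaps TTTAT, was present at 5.44% (4.29 to 6.87%) of EB-top and 5.38% (4.51 to 6.4%) of day 3-top shared sites, against 2.19% (1.91 to 2.52%) of EB-only, 2.92% (2.56 to 3.31%) of day 3-only sites and 0.605% of genome windows. TGATTGAT, the pairing with an anterior Hox site, was present at 3.85% and 2.98% of shared, 1.72% of EB-only and 1.39% of day 3-only sites, against 0.394% of windows. TGATTAAT, which overlaps TAAT, was rarer, at 1.34% and 1.58% of shared, 0.886% of EB-only and 1.18% of day 3-only sites, against 0.409% of windows. The MEIS word TGACAG was present at 8.91% (8.33 to 9.52%) of EB-only and 12.1% (11.3 to 12.8%) of day 3-only sites, and at 13.7% and 14.4% of shared sites, against 6.4% of windows. TTTAT was present at 25.5% (24.6 to 26.4%) of EB-only sites, 36.5% (33.8 to 39.2%) and 39% (37 to 41%) of shared sites and 40.3% (39.2 to 41.4%) of day 3-only sites. Of windows 33.8% hold it. This word is made of A and T only, and its shares were not split by GC content.

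Some words of other factor families differed between EB-only and day 3-only sites by larger ratios than TAAT. The octamer ATGCAAAT, recognised by POU factors such as OCT4, was present at 3.85% (3.47 to 4.27%) of EB-only sites and 0.642% (0.487 to 0.845%) of day 3-only sites, where 0.852% of genome windows hold it. CATTGT, recognised by SOX factors, was present at 14.4% and 13.7% of these classes and at 18.2% and 17.8% of shared sites, against 6.4% of windows. CAGATG, an E-box of neural bHLH factors, was present at 20% (19.2 to 20.9%) of day 3-only and 8.11% (7.56 to 8.7%) of EB-only sites, against 7.67% of windows. CAGCTG, another E-box, was present at 9.3% of EB-only, 10.8% of day 3-only, and 16.1% and 13% of shared sites, against 3.67% of windows. AAGGTCA, a site of nuclear receptors, was present at 5.87% (5.37 to 6.41%) of day 3-only and 1.67% of EB-only sites, against 1.85% of windows. The remaining words were held by few sites, with the KLF word GGGTGTG at 1.61% of EB-only and 1.08% of day 3-only sites, the GC box GGGCGG at 1.73% and 1.16%, the E-box CACGTG at 0.5% and 0.758%, and TAATTA, which contains TAAT, at 5.88% and 7.45%.

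All 2080 words of 6 bases were also compared between EB-only and day 3-only sites, without a test. Toward EB-only sites, the 5 greatest differences included AGCAGG, at 25.3% against 7.11%, CAGCAG, at 27.5% against 10.8%, CAGGGG, at 15.2% against 5.36%, and CACCTG, at 11.9% against 2.74%. Toward day 3-only sites the 5 greatest were ATCAAT, at 19.8% against 6.25%, TATTGA, at 15.6% against 3.42%, CAGATG, as given above, the word ATAAAT, at 19.3% against 8.42%, and CAATAA, at 15.1% against 5.68%. ATAAAT, which overlaps TTTAT, was also present at 19.1% and 20.6% of shared sites. From these, 2 longer words were chosen after their values were seen. CAGCAGG, part of the sequence recognised by ZIC zinc finger factors, was present at 19.1% (18.3 to 19.9%) of EB-only sites, 10% and 5.06% of shared sites in the EB and day 3 rankings, 2.34% (2.02 to 2.7%) of day 3-only sites and 1.99% of windows. In the range of 50% GC or more it was present at 26.2% of EB-only and 6.26% of day 3-only sites, and under 40% GC at 7.11% and 0.862%. ATCAATA, recognised by ONECUT factors, was present at 9.52% of day 3-only sites, 3.16% and 2.09% of shared sites in the day 3 and EB rankings, 0.818% (0.65 to 1.03%) of EB-only sites and 1.58% of windows. A match describes the letters and does not show that the factor was bound.

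**Figure D3:**
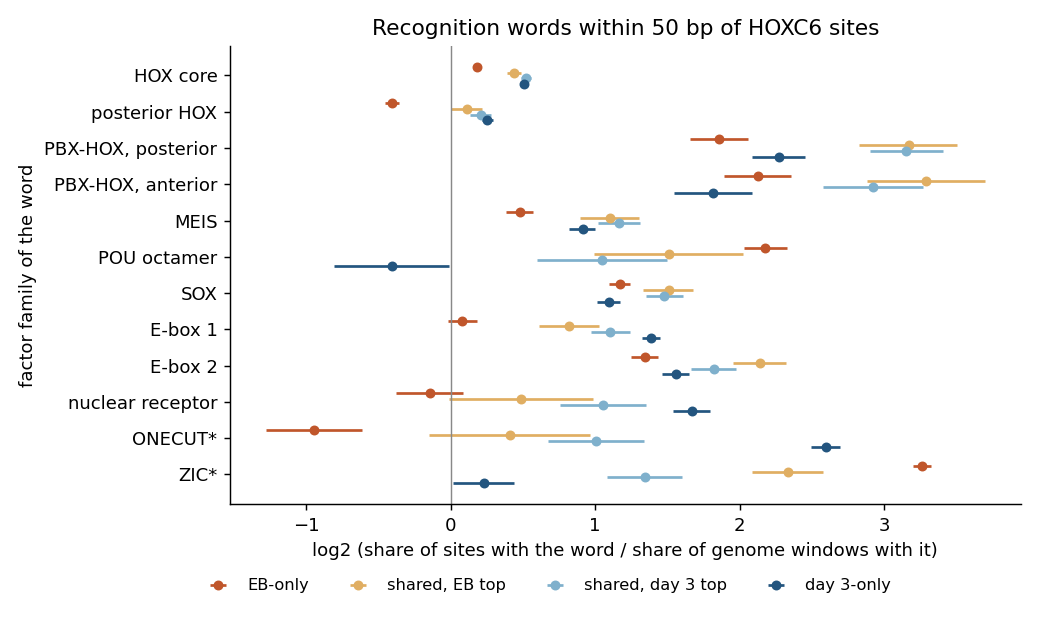
Share of sites holding a recognition word within 50 bp of the event, as log2 of its ratio to the share of all genome windows of the same length (x axis), for 12 words named by factor family. Points are classes, bars 95% Wilson intervals of the site share and the line at 0 the genome; the 2 families with an asterisk were chosen after their values were seen, and the POU and ZIC words lie to the right for EB-only sites and the ONECUT and nuclear receptor words for day 3-only sites.

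The classes differed in how often the other lists had an event at their sites. EB-only sites were chosen for having no day 3 HOXC6 event, and day 3-only sites for having no EB event. Part of the differences below is set by this choice, and how much was not tested. Stage and control library cannot be told apart here either. Nearly all EB-only sites had a HOXC9 event in unpatterned EBs, 95.04% (94.6 to 95.5%), against 24.35% (23.4 to 25.3%) of day 3-only sites, a difference of 70.69 points (69.6 to 71.7). HOXC9 is a thoracic paralog, induced there in its own line for 12 h, with a control of the same read number and the same label identifier. Its EB list holds 128322 events, and among its top 10000 only, the shares were 36.8% and 1.81%. Shared sites had such an event in 95.6% (EB ranking) and 81.4% (day 3 ranking) of cases. The EB HOXC6 and HOXC9 lists name no other condition in their headers.

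HOXC6 at day 4, after 48 h of Dox, had an event at 98.91% (98.7 to 99.1%) of day 3-only sites, at 98.3% and 99.5% of shared sites and at 15.25% (14.5 to 16%) of EB-only sites, and EB-only minus day 3-only was -83.65 points (-84.4 to -82.8). In the top 10000 of the day 4 list these shares were 63% of day 3-only and 1.02% of EB-only sites. EB-only sites at promoters had a day 4 event more often, 22.4% (19.3 to 25.8%), than those elsewhere, 14.7% (13.9 to 15.5%). EB-only sites with TAAT had one in 17.4% of cases and those without in 12%. The headers of the day 3 HOXC8, HOXC9, HOXC10 and HOXC13 lists name HOXC6 as a compared condition, and that of the day 4 HOXC6 list names another HOXC6 condition under a day number that is not explained in the sources used here. These lists were therefore compared with HOXC6 libraries when they were made, and the part of this in their overlap with day 3 sites was not tested.

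The day 3 lists of other Hox factors also had more events at day 3-only than at EB-only sites. HOXC9 at day 4, whose header does not name HOXC6, had an event at 54.3% (53.1 to 55.4%) of day 3-only and 9.18% (8.59 to 9.8%) of EB-only sites. At day 3, HOXC8, another central paralog, had an event at 97% of day 3-only and 7.89% of EB-only sites. The values were 77.4% and 11.8% for HOXC9, 58.2% and 4.75% for HOXC10, and 24.3% and 8.41% for HOXC13, the most posterior of them. The HOXC9, HOXC10 and HOXC13 events were more frequent at shared sites than at day 3-only sites, at 89.7%, 70.9% and 41.3% of the day 3-top shared sites. Of EB-only sites 71.4% (70.5 to 72.4%) had an event of EB HOXC9 and of none of 6 patterned Hox lists, 24.7% had one in at least 1 patterned list, and 3.85% had no other Hox event.

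MEIS, whose lists come from 1 library each at day 3, was most frequent at shared sites. In cells with induced HOXC6 (iHoxc6.V5), MEIS had an event at 43% (40.2 to 45.8%) of EB-top and 49.3% (47.3 to 51.4%) of day 3-top shared sites, 29.8% (28.8 to 30.8%) of day 3-only sites and 2.02% (1.75 to 2.34%) of EB-only sites. EB-only minus day 3-only was -27.76 points (-28.8 to -26.7). Among day 3-only sites, those with TGACAG had a MEIS event in 43.3% (40.1 to 46.5%) of cases and those without in 27.9% (26.9 to 29%), and among EB-only sites in 4.97% (3.66 to 6.73%) and 1.73% (1.47 to 2.04%). MEIS in iHoxc9.V5 and iHoxc10.V5 cells had an event at 4.77% and 3.34% of EB-only and 33.5% and 28.8% of day 3-only sites. MEIS in unpatterned EBs was not analysed here.

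**Figure D4:**
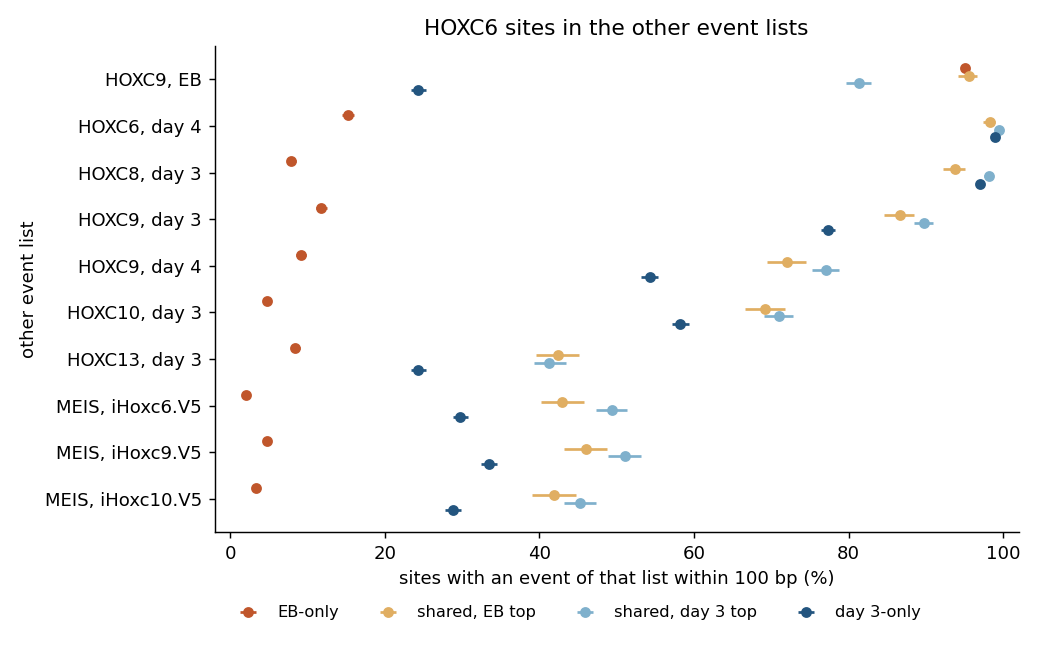
Share of HOXC6 sites of each class with an event of 10 other lists within 100 bp (x axis, percent; y axis, the list), as points with 95% Wilson intervals. EB-only sites lie at 95% for EB HOXC9 and at 15.2% or below for every list of patterned cells.

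Nearby genes were counted within 50 kb of the gene start, over 21728 protein-coding genes. By that measure 23.5% of all protein-coding genes had an EB-only site, 3.26% an EB-top shared site, 5.56% a day 3-top shared site and 15.1% a day 3-only site. Neighbouring genes share sites, so that genes of 1 cluster are not separate observations, and nearness does not show that a site acts on a gene.

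Pluripotency and early embryo genes had EB-only sites nearby. Of 25 pluripotency genes 18 (72%) had an EB-only site, 4 (16%) an EB-top shared site and 6 (24%) a day 3-only site. Over all protein-coding genes these shares were 23.5%, 3.26% and 15.1%, so that all 3 were higher in this list. Klf5, a Krüppel-like factor of the naive network, had 5 EB-only sites of 190.4 to 1326.7 reads and no site of another class. Pou5f1, which encodes OCT4, and Tdgf1, a Nodal co-receptor gene, had 2 EB-only sites each and no day 3 event of any rank, and Klf4 had 2 EB-only sites and 1 day 3 event below rank 10000. Nr0b1, a nuclear receptor gene of the same network, had 2 day 3-only sites and no EB event of any rank. Sox2 had 3 EB-only sites, a shared site at 16116 bp from the start with 398.8 reads in EBs and 88.3 reads at day 3, and a day 3-only site of 341 reads at 4641 bp. Nanog, Tfcp2l1, Nr5a2 and Tcl1 had no site of any class, though each had at least 1 EB event below rank 10000. Among 20 epiblast and germ layer genes 11 (55%) had an EB-only site and 3 (15%) a day 3-only site, the latter near the all-gene share. The TGFβ family ligand Nodal had 3 EB-only sites of 170.7 to 614.5 reads, its antagonists Lefty1 and Lefty2 had 4 each, and the mesoderm factors T and Eomes had 2 each.

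The genes with most EB-only sites were partly the product of closely packed events. Foxa2, an endoderm and floor plate factor, had 13, more than any other gene. Of these, 10 lay at chr2:148043621-148044767, all inside coding exons of Foxa2, with 8859.3 ChIP reads and 102.8 control reads in sum. EB HOXC9 had an event at 5 of these 10 positions, and day 4 HOXC6 at none of them. What produced the packed coding events was not tested. With 1 event kept per run of events at gaps of 500 bp or less, which was chosen after the data were seen, Foxa2 had 4 EB-only sites, Klf5 had 2 and Klf4 had 1. Etv5, Hoxb1, Hoxb2, Vmn1r2 and Vmn1r3 led with 6 EB-only sites each. Some counts rose, as from 5 to 6 at Hoxb1 and Hoxb2, so the sites under this rule are not a subset of the main ones. Under it, 26.3% of all protein-coding genes had an EB-only site and 16.6% a day 3-only site.

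The other leading EB-only genes were Vmn1r2 and Vmn1r3, overlapping windows of vomeronasal receptor genes on chromosome 4 with 10 sites each, Etv5, an FGF-responsive ETS factor, with 8 sites of 177.9 to 2441.9 reads, and Phc1, a Polycomb subunit, with 7 sites of 214.4 to 4864.9 reads. On chromosome 18, 4933408B17Rik, Fam13b and Nme5 had 7 each. The neighbouring Wnt8a, a Wnt ligand of the primitive streak, also had 7, of 178 to 3303.6 reads. With 1 event per run these 4 genes and Phc1 had 4 EB-only sites each, and Vmn1r2 and Vmn1r3 had 6. Of 30 genes of the Shh, Wnt, Fgf and Notch pathways, 17 (56.7%) had an EB-only site and 12 (40%) a day 3-only site. Over all protein-coding genes these shares were 23.5% and 15.1%. Sp5, a Wnt target, had 4 EB-only sites and 1 day 3-only site. Lef1, a Wnt effector, and Spry2, an FGF feedback inhibitor, had 3 EB-only sites and no day 3 site. The Notch ligand gene Dll1 had 3 day 3-only sites and no EB-only site, and its 3 day 3-top shared sites had 348.1 to 517.5 reads. With 1 event per run it had 2 day 3-only and 2 day 3-top shared sites, and Spry2 had 2 EB-only sites. Ptch1, the hedgehog receptor, had 2 EB-only sites, 2 shared sites in either ranking and 1 day 3-only site.

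Genes of neural progenitors and neurons had day 3-only sites nearby. Of 25 ventral neural progenitor genes 14 (56%) had a day 3-only site and 9 (36%) an EB-only site. Over all protein-coding genes these shares were 15.1% and 23.5%. Olig2, the motor neuron progenitor factor, had 6 day 3-only sites, from -49397 to -15806 bp from its start, with 79.8 to 1107.3 reads, and 1 EB-only site of 417.5 reads at -44235 bp. Prdm8 and Sp8 had 4 day 3-only sites, and Hes5, Sox1 and Nkx6-1 had 3. Sp8, Pax6 and Dbx2 also had EB-only sites, 3, 3 and 2. Of 25 motor neuron and neuron genes 14 (56%) had a day 3-only site and 7 (28%) an EB-only site. Tubb3, a neuronal tubulin, had 8 day 3-only and 5 day 3-top shared sites of 66.4 to 137.8 reads, which it shared with its neighbours Mc1r and Def8. Apart from 1 at -1088 bp, these sites lay 15287 to 22080 bp from the Tubb3 start, past its end and within Def8. Control reads at the day 3-only sites reached 20.5. A run of 4 events among them, nearest to a Def8 start site, had a day 4 HOXC6 event at 1. With 1 event per run, Tubb3 had 5 day 3-only and 3 day 3-top shared sites, Prdm8 had 2 day 3-only sites and Sox1 had 2. Onecut1 had 4 day 3-only sites and Onecut2 and Ebf3 had 2. Mnx1, which encodes the motor neuron factor HB9, had no day 3-only site, 2 EB-only sites and 2 shared sites in either ranking. Isl1, Lhx1 and Foxp1 had none.

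Of 20 retinoic acid pathway and Cdx genes 8 (40%) had a day 3-only site and 7 (35%) an EB-only site. Over all protein-coding genes these shares were 15.1% and 23.5%. Cyp26b1, which encodes an RA-degrading enzyme, had 3 day 3-only sites and no other, and Crabp1, an RA-binding protein gene, had 2. Cyp26a1, another RA-degrading enzyme gene, had a shared site at 33399 bp in EBs and 33389 bp at day 3, with 276.1 and 76.9 reads, and an EB-only site. Of 11 TALE cofactor genes 4 (36.4%) had an EB-only site and 2 (18.2%) a day 3-only site, the latter near the all-gene share. Pbx3 had 4 EB-only sites of 288.5 to 2595.6 reads and no other, and Meis2 had 2 EB-top shared and 3 day 3-only sites. Of 30 axon guidance and adhesion genes 10 (33.3%) had an EB-only and 11 (36.7%) a day 3-only site, where the all-gene shares were 23.5% and 15.1%. Robo2, a receptor for the guidance cue SLIT, had 6 day 3-only sites of 122.6 to 795.9 reads, 1 EB-only and 1 day 3-top shared site, and the Eph receptor gene Epha4 had 3 EB-only and 2 day 3-top shared sites. With 1 event per run Robo2 had 3 day 3-only sites and Cyp26b1 had 2.

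Hox genes led the counts of shared sites, and Hoxb3 to Hoxb6 were level with Def8, Mc1r and Tubb3 in day 3-only sites, at 8 each. With 1 event per run Hoxb3 to Hoxb6 led with 7. Of 39 Hox genes 34 (87.2%) had a day 3-only site, 30 (76.9%) a day 3-top shared site, 10 (25.6%) an EB-top shared site and 14 (35.9%) an EB-only site. Over all protein-coding genes these shares were 15.1%, 5.56%, 3.26% and 23.5%. The HoxA cluster was bound at both stages. Around Hoxa2 there were 9 EB-top shared sites with 3169.9 reads in sum, 16 day 3-top shared sites with 2365.8 reads in sum, 6 day 3-only sites and 1 EB-only site. The shared counts were lower toward the posterior end, with 4 EB-top shared sites around Hoxa7, 1 around Hoxa9 and none around Hoxa11 and Hoxa13. The HoxB cluster had no EB-top shared site. Hoxb3, Hoxb4, Hoxb5 and Hoxb6 had 8 day 3-only and 4 day 3-top shared sites each, and the EB-only sites lay toward Hoxb1 and Hoxb2, with 5 each. The EB-only site of most reads near Hoxb3 was 42235 bp from its start, just upstream of the Hoxb1 start, with 2183.7 reads. Within 50 kb of the Hoxc6 start there were 4 day 3-only sites, of 73.8 to 1047.5 reads, 2 day 3-top shared sites and no EB top site. All of these sites lay 16418 to 37109 bp from that start, past the end of Hoxc6. The one at 16418 bp lay within the annotated Hoxc5 gene and the others within Hoxc4. In HoxD, Hoxd10 had 4 day 3-only and 3 day 3-top shared sites and no EB top site. Skap2, beside HoxA, had 7 day 3-only sites of 75 to 553.7 reads and no other.

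**Figure D5:**
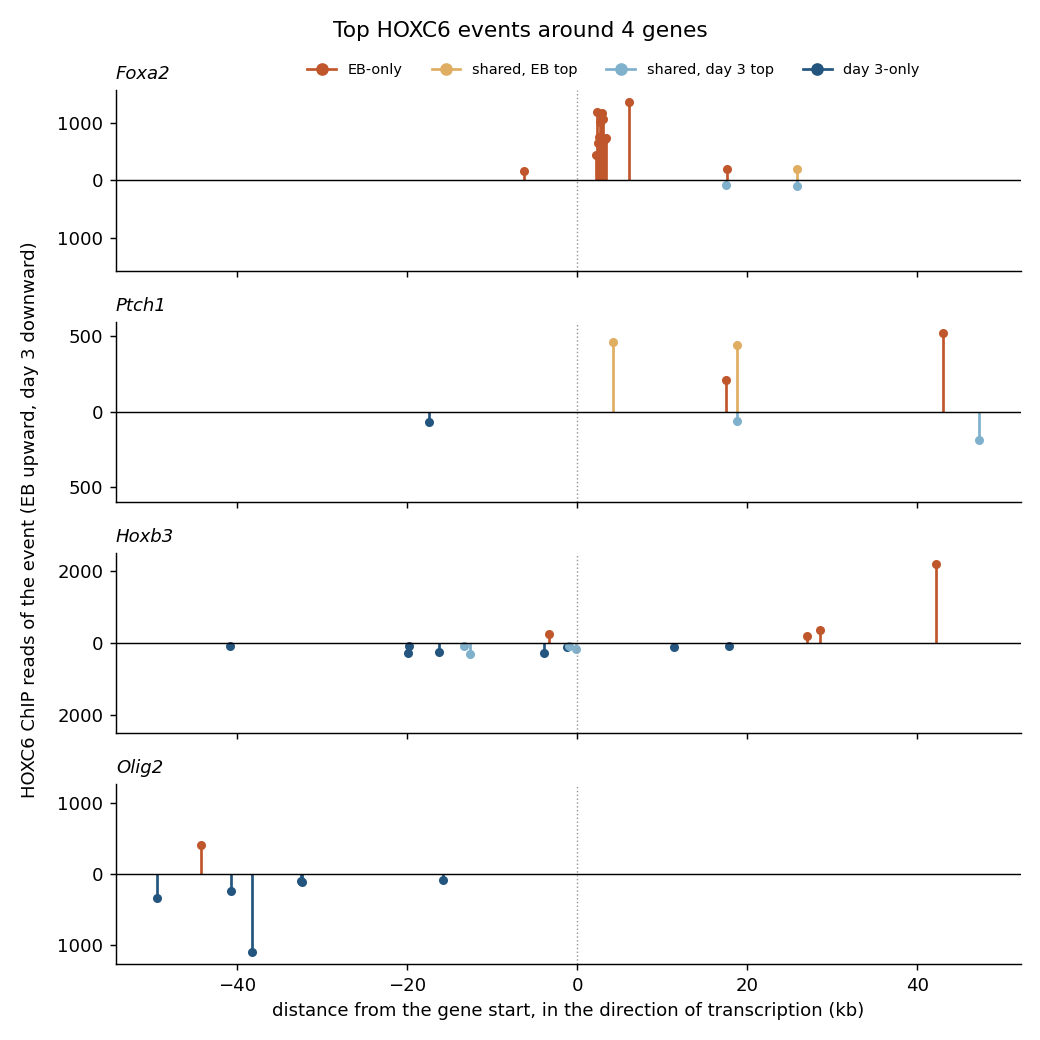
Top HOXC6 events within 50 kb of 4 gene starts, by distance along the direction of transcription (x axis, kb) and ChIP reads (y axis, EB events upward and day 3 events downward, one scale per panel). Heights can be compared only within a stage, since depth and signal fraction differ between the lists. The 10 packed EB-only events stand inside Foxa2, EB and day 3 events both occur around Ptch1, day 3 events outnumber EB events around Hoxb3, and day 3-only events lie upstream of Olig2.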

How the data were processed

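HOXC6 ChIP-seq was measured in 2 libraries of unpatterned EBs and 2 of patterned EBs at day 3, grouped by their labels. The authors aligned reads to mm10 with Bowtie (1.0.1), keeping unique hits, and called events with MultiGPS over pooled replicates against a control. The deposited lists give the estimated count of ChIP reads and of control reads per event, the log2 fold over control and a log2 q-value, as the authors' caller made them. The authors' columns of comparisons between conditions (log2 fold changes and p-values) were not used.

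Events were ranked by ChIP read count and paired within 100 bp (Python 3.11, numpy, pandas and numba). All 44678 sequence strings of the EB list were found within 200 bp of their event on GRCm38, the assembly of mm10, and the day 3 list carries none. Genes and 130588 start sites came from GENCODE mouse release 21. CpG-rich meant over 0.55 GC and over 0.65 observed to expected CpG in 501 bases. Pairing, word search and intervals were tested on simulated data. Shares carry 95% Wilson intervals and differences Newcombe intervals, which cover counting error only. The members, words and gene lists were chosen with earlier results of these data known. Named genes were, per class, the 8 protein-coding genes with most sites within 50 kb and the list members with most sites, and the sites those of most reads (sequences outside chromosome 18); members of the gene lists with no site, or of known role, and the packed Foxa2 events, were added after their values were seen. Some genes are not reported here. Alternatives covered ranking, list length, distance, promoter width and word.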

Additional observations from a re-analysis of the deposited data

How the results depend on the processing

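The 5 differences between EB-only and day 3-only sites kept their sign under every alternative run. The day 3 share was above the EB share except with partners only in the top 10000. With the EB list shortened to the day 3 length it was barely above, at 12.31% (11.7 to 13%) against 11.96% (11.3 to 12.6%). The intervals of the 2 shares overlapped under both of these alternatives. The share of EB top events with a day 3 event, 11.96%, was 14.72% in the top 5000, 13.5% at 200 bp, 9.51% at 50 bp and 8.42% with partners only in the top 10000. The day 3 share, 22.13%, was 26.36%, 24.82%, 17.25% and 7.82% in the same order, and 12.31% with the EB list shortened to the day 3 length. The promoter difference, 2.3 points, was 1.47 at 500 bp, 3.74 at 2 kb and 1.56 with protein-coding start sites only. No top list longer than 10000 was run, and over all events the promoter share was higher at day 3. The TAAT difference was -9.15 within 100 bp and -1.57 for TAATTA. The EB HOXC9 difference was 65.7 with the shortened EB list, 35 against the top 10000 HOXC9 events and 72.5 for sites with no event of the other stage within 1 kb. The day 4 HOXC6 difference was -82.1 at 200 bp, -62 against the top 10000 and -84.8 with the 1 kb rule. The MEIS difference was -36.9 in the top 5000, -29.7 with the shortened list, -30.9 at 200 bp and -26.1 with 1 event per 500 bp run, an alternative chosen after seeing the data. A shorter partner list or distance gives fewer partners by construction, and for the rest the cause was not tested. Ranking by q-value left all 7 values, and using all sequences of the file both shares, within the interval of the main value.

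No paired analysis was possible because each list pools its replicates, and leaving out a replicate could not be run for the same reason. The day 3 list has the lower signal fraction, so a missing day 3 event does not show absence of binding at that depth.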
